A study of Mus musculus with 4 samples.

Results

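Interferon-stimulated and antigen presentation genes were followed in mouse gastrocnemius, a mixed but mostly fast calf muscle. The group was a list of 39 genes named by function, with no measured value in the rule: interferon response transcription factors, nucleic acid sensors, antiviral effectors, interferon-inducible GTPases and the machinery of MHC class I presentation. The list was, however, chosen with earlier results of these data known. Each gene was read from probe sets that the array annotation assigns to that gene alone, and from the brightest of these where there were several. Of the 39 genes, 37 were measured, Isg15 being found only on a probe set of several genes and Ifi44 on none, and 34 were bright enough to be counted, against 12565 of 18193 genes on the whole array.

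The study asked which genes need the FoxO transcription factors when muscle is deprived of food. Control mice carried floxed alleles of all 3 genes (FoxO1,3,4 f/f, called wild type in the sample labels), and knockout mice carried the same alleles together with MLC1f-Cre. The fast myosin light chain promoter of this transgene acts, by the paper's account, in type II muscle fibres but not in type I fibres. Type I fibres, vessels, connective tissue and immune cells of the muscle thus kept their FoxO genes. All mice were males of a cross of C57BL/6N and FVBN, aged 2 to 4 months in the study as a whole, and were either fed or starved for 24 h with free access to water. RNA of 6 muscles from 3 mice was pooled for each of the 4 conditions and read on 1 array per condition, so no difference below has a replicate check, a test or an SD between animals.

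Interferons are secreted proteins that warn cells of infection. Type I interferons and interferon gamma bind separate receptors, both of which signal through JAK kinases to STAT proteins. With type I interferon, STAT proteins join IRF9 in a complex that binds the interferon-stimulated response element, a DNA motif built from repeated GAAA, and switches on a large set of antiviral genes. Interferon gamma also raises the GTPases that attack intracellular microbes and the genes that load peptides onto MHC class I molecules, which every nucleated cell displays to cytotoxic T cells. Muscle fibres normally display little MHC class I, whereas endothelial cells and macrophages of the muscle display much of it.

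The response element core was looked for in the upstream sequence of the genes. Sequence was not part of the rule, but genes named as interferon-stimulated belong to the set switched on through this element. A share above that of all genes was therefore to be expected and is not a separate check of the list. The core was written as GAAANNGAAA and searched on both strands in the 250 bases before each RefSeq start (GRCm38.p6). It was present in 11 of the 30 genes of the group with a promoter entry (36.7%), namely Stat2, Ifit1, Ifit3, Isg15, Rsad2, Bst2, Gbp2, Gbp3, Igtp, Irgm1 and B2m, and in 3.46% of all 27025 genes. Among other interferon-stimulated genes outside the group, 16 of 41 with a promoter entry held it. Sequence around the core is shown for 8 of the 11 genes of the group, in the order of the size of their difference between the starved arrays. Capitals mark the core, which is read as its reverse complement (TTTC repeated) where it lies on the other strand, each line runs 5′ to 3′ in the direction of its gene, and every stretch lies upstream of the annotated start of the gene it is named for.
Ifit3 (chr19:34583333-34583456, plus strand): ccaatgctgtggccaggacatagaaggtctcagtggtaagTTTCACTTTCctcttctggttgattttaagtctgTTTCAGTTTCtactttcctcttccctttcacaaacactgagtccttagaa
Rsad2 (chr12:26456523-26456612, minus strand): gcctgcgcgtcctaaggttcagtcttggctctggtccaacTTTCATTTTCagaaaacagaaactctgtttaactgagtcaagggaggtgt
Gbp3 (chr3:142559959-142560043, plus strand): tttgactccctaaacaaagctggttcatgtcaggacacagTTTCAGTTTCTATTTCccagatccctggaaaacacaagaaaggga
Irgm1 (chr11:48871421-48871490, minus strand): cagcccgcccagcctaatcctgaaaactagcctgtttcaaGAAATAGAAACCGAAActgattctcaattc
B2m (chr2:122147508-122147597, plus strand): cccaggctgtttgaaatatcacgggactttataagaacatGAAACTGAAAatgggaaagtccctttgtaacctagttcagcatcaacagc
Igtp (chr11:58199482-58199555, plus strand): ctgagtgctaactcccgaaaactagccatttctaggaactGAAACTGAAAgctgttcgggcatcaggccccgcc
Gbp2 (chr3:142620564-142620653, plus strand): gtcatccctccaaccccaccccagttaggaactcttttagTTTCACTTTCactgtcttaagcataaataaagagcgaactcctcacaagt
Ifit1 (chr19:34640745-34640853, plus strand): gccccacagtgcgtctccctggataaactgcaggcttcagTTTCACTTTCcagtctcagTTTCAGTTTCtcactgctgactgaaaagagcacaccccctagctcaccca

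Ifit1 and Ifit3 each hold 2 separate copies of the core, and Gbp3 and Irgm1 hold 2 copies that share their middle GAAA. A STAT site, TTCNNNGAA, was present in 6 of the 30 (Irf1, Eif2ak2, Ifit2, Bst2, Samhd1 and Igtp) and in 8.13% of all genes. The forkhead core GTAAACA, the motif that FoxO proteins bind, was present in 2 (6.67%; Rsad2 and Gbp3) and in 3.54% of all genes. These are matches of letters in a window and not measured binding.

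Signals are MAS 5.0 values, a linear measure of array brightness. A gene is said below to have risen or fallen if the ratio of its signals on 2 arrays reached 1.5 or the inverse, 0.585 on the log2 scale. Genes were counted if their probe set reached the median of its array on at least 1 array. The only error the arrays hold is the scatter between probe sets of the same gene. For the starvation ratio of control muscle its SD on the log2 scale was 0.807 among the dimmest probe sets, with mean signals up to 35.7, and 0.292 among the brightest. Single calls of dim genes are therefore the least certain, and the text gives counts over the group beside the same count over all genes. The genes of the group are read on the same pooled arrays and can move together, so these counts do not stand in for replicates. Of the 34 genes, 18 lay above the 75th percentile of the fed control array. Levels are compared between arrays and not between genes, since probe sets differ in how brightly they report the same amount of RNA.

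**Figure D1:**
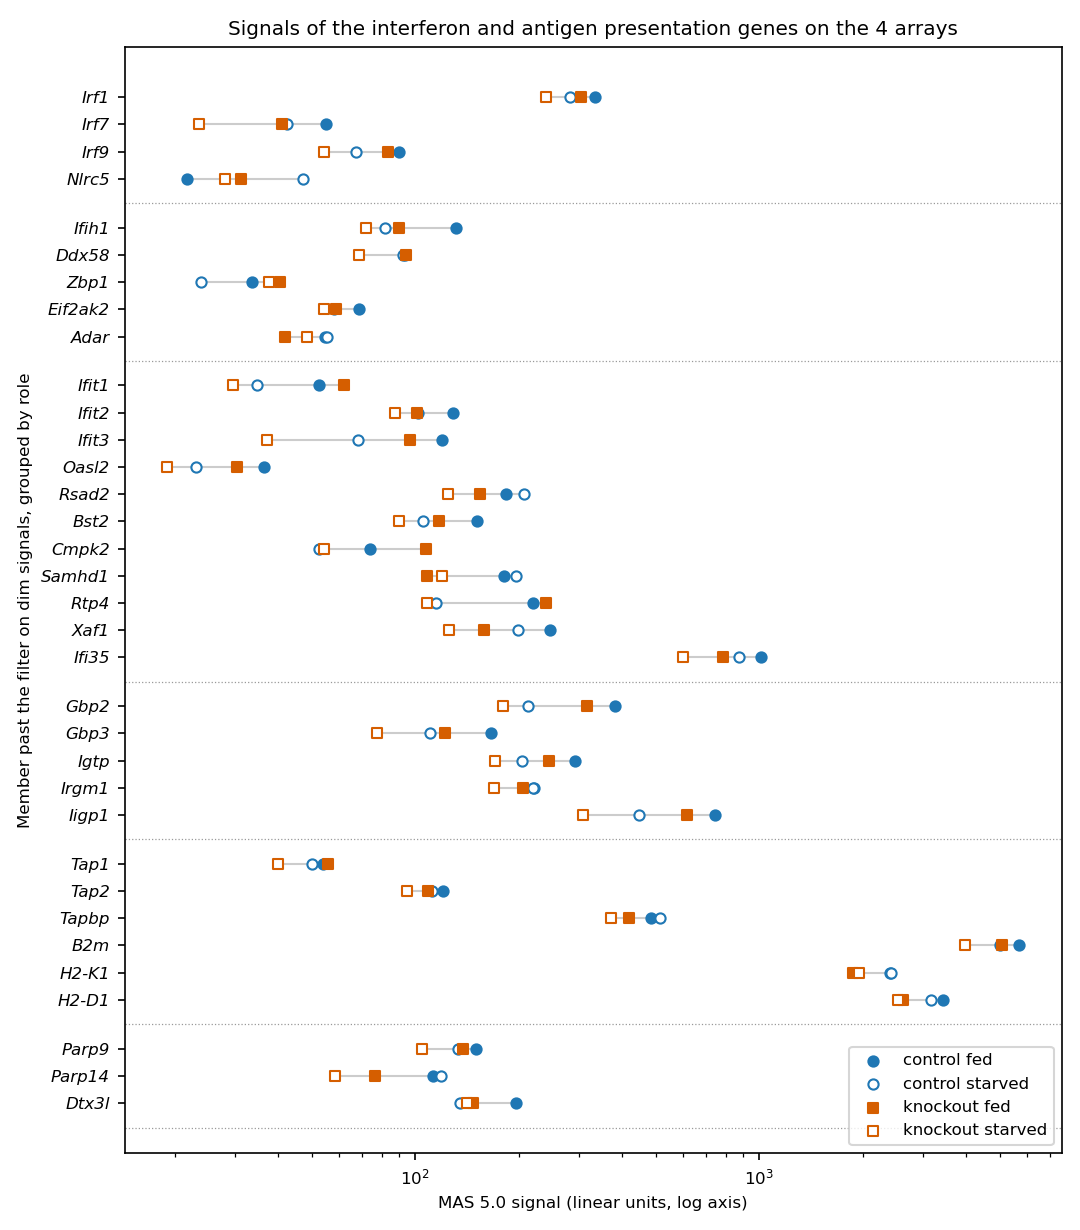
MAS 5.0 signals (log axis, linear units) of the 34 genes that were counted, grouped by role; blue circles are control and orange squares knockout muscle, filled when fed and open when starved, 1 array each. The open orange squares (starved knockout) lie at or near the left end of most rows, while for Nlrc5 the open blue circle (starved control) lies alone at the right.

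On starvation more of the group fell than rose in both genotypes. In control muscle 8 of the 34 genes fell (Ifih1, Ifit1, Ifit3, Oasl2, Rtp4, Gbp2, Gbp3 and Iigp1), where 14.2% of all genes fell, and Nlrc5 alone rose, where 9.23% of all genes rose. In knockout muscle 10 fell (Irf7, Irf9, Ifit1, Ifit3, Oasl2, Cmpk2, Rtp4, Gbp2, Gbp3 and Iigp1) and none rose, against 9.45% and 7.39% of all genes. The median log2 ratio of the group was -0.28 in control and -0.37 in knockout muscle, against -0.11 and -0.06 over all genes. A ratio below 0 was found for 27 and 31 of the 34, but the medians of all genes were themselves below 0. Below the median of all genes lay 23 of the 34 in control and 29 in knockout muscle.

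The starvation ratios of the 2 genotypes share no array and come from separate pools of mice. Ifit1, Ifit3, Oasl2, Rtp4, Gbp2, Gbp3 and Iigp1 fell in both, which is 7 of 34 (20.6%) where 3.91% of all genes did. A ratio below the median of all genes in both genotypes was found for 21 of the 34 (61.8%), against 31.7% of all genes. In 19 (55.9%) both starved signals were below both fed signals, against 28.2% of all genes. Each of these 3 shares was above that of all genes. The counts of doubly called and non-overlapping genes were chosen after values were seen and are a description only. After median scaling or quantile normalization of the arrays, 5 genes fell in both genotypes (Ifit3, Oasl2, Rtp4, Gbp2 and Iigp1), against 3.32% and 3.04% of all genes.

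**Figure D2:**
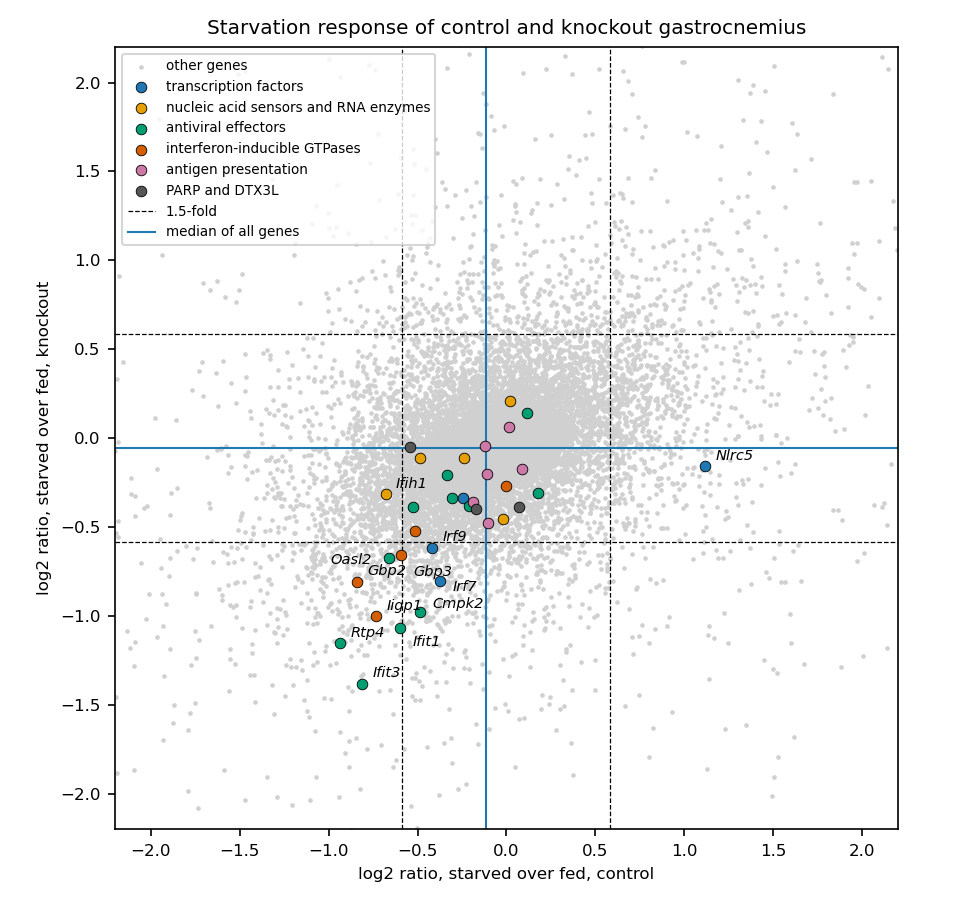
Log2 ratio of starved over fed signal in control muscle (horizontal) and knockout muscle (vertical) for all genes that were counted (grey) and the 34 interferon and antigen presentation genes (coloured by role); 350 genes lie outside the axes. The 7 genes that fell in both genotypes sit in the lower left corner beyond both dashed 1.5-fold lines, and Nlrc5 stands alone at the right.

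Of the 11 antiviral effectors past the filter, 4 fell in the control and 5 in the knockout, where 14.2% and 9.45% of all genes fell. Rtp4, a chaperone of membrane receptors that is among the most inducible interferon genes, went from 219.6 fed to 114.9 starved in the control and from 240.8 to 108.1 in the knockout pools. Both fed arrays were high and both starved arrays low, without overlap. Its log2 ratio was -0.93 in control and -1.16 in knockout muscle.

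The IFIT proteins bind foreign RNA and block its translation. Ifit3 went from 119.7 to 68.2 in control and from 96.4 to 37.0 in knockout muscle, log2 ratios of -0.81 and -1.38, the latter the steepest of the 34 genes. Ifit1 went from 52.6 to 34.7 in control and from 62.0 to 29.6 in knockout muscle, with log2 ratios of -0.60 and -1.07. For both genes the starved signals lay below the fed ones in each genotype. Ifit2, the other member of the family on the list, had log2 ratios of -0.33 and -0.21 and did not pass 1.5-fold in either genotype.

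Oasl2, an oligoadenylate synthetase-like protein, was dim throughout, at 36.4 fed and 23.0 starved in control and at 30.3 and 19.0 in knockout muscle. The log2 ratios were -0.66 and -0.67, each smaller than the scatter SD of such dim probe sets. Cmpk2, a mitochondrial nucleotide kinase, went from 73.8 to 52.6 in control muscle, which did not pass 1.5-fold, and from 107.4 to 54.4 in knockout muscle, where it fell by 0.98 on the log2 scale. The fed knockout array was the highest of the 4 and the starved arrays were the lowest. A second, dimmer Cmpk2 probe set had log2 ratios of -1.55 in control and -0.50 in knockout muscle, so it passed in the control only.

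Other antiviral effectors had ratios nearer 1. Rsad2 (viperin, an enzyme that makes a chain-terminating nucleotide) was at 183.7 fed and 207.4 starved in the control, and at 154.0 and 124.4 in the knockout. Samhd1, which degrades the nucleotides that viruses need for DNA synthesis, was at 181.2 and 196.0, then 108.5 and 119.5 in the same order. Xaf1, a partner of the apoptosis inhibitor XIAP, was at 246.1 and 199.4, then 158.7 and 125.5. On these probe sets none of the 3 passed 1.5-fold on starvation, and their differences between genotypes are given below. A second Rsad2 probe set went from 73.6 to 34.0 in the knockout, a log2 ratio of -1.11, and did not pass in the control. The third Rsad2 probe set passed in neither genotype. Bst2 (tetherin, which holds budding virus at the cell surface) had starvation log2 ratios of -0.53 and -0.39, and Ifi35, a partner of other interferon-induced proteins, of -0.21 and -0.38. Mx1 and Mx2, GTPases that trap viral particles, were too dim to be counted, at 7.1 to 21.4 and 1.5 to 17.9 units.

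All 5 interferon-inducible GTPases had starvation ratios below 0 in both genotypes, and 3 of them fell in both, where 3.91% of all genes did. Iigp1, an immunity-related GTPase that attacks the vacuoles of intracellular parasites, went from 741.7 to 446.6 in control and from 617.2 to 308.0 in knockout muscle, starved over fed ratios of 0.602 and 0.499 on the linear scale. Gbp2, a guanylate-binding protein of the same defence, went from 382.1 to 213.4 and from 315.2 to 180.0, log2 ratios of -0.84 and -0.81. Gbp3, its relative, went from 166.6 to 110.2 and from 122.4 to 77.6, ratios of -0.60 and -0.66. In each of these 3 genes both starved signals lay below both fed signals. Igtp came just short of 1.5-fold in both, at -0.51 and -0.53, and Irgm1 had ratios of -0.01 and -0.27. In the control Irgm1 lay above the median of all genes.

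The 4 transcription factors past the filter had a median starvation ratio of -0.31 in the control and -0.48 in the knockout. Irf7, which amplifies the type I interferon response, went from 54.9 to 42.4 in control and from 41.0 to 23.5 in knockout muscle, log2 ratios of -0.37 and -0.80. Irf9, the DNA-binding partner of the STAT complex, went from 89.8 to 67.2 and from 83.2 to 54.3, ratios of -0.42 and -0.62. Both passed 1.5-fold in the knockout and neither did in control muscle. On the brightest probe sets, however, no gene of the group fell 1.5 times further in knockout than in control muscle except Nlrc5, which rose in the control. Irf9 no longer passed in the knockout after median scaling (-0.56) or quantile normalization (-0.54). With an offset of 20 units neither Irf7 nor Irf9 passed there. Irf1, the main factor of interferon gamma targets, was at 334.2 and 281.7 in control and at 303.1 and 240.2 in knockout muscle, with ratios of -0.25 and -0.34. Stat2, the other partner of Irf9, was too dim to be counted, its signal on the fed control array being the highest, with 11.2 on the starved control array and 15.2 fed and 10.6 starved in the knockout.

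Nlrc5, the transactivator of MHC class I genes, was the exception. It was at 21.7 fed and 47.1 starved in control muscle, a rise of 1.12 on the log2 scale, and at 31.1 and 27.9 in knockout muscle, a ratio of -0.16. The starved control array alone was high, and the other 3 lay between 21.7 and 31.1. This was the only one of the 34 genes whose starvation ratio was at least 1.5 times higher in control than in knockout muscle, which held for 10.4% of all genes, and none was at least 1.5 times higher in the knockout, where 12.3% of all genes were. With the mean over probe sets, 3 of the 34 were at least 1.5 times higher in the control, against 11.2% of all genes. Nlrc5 has 1 probe set past the filter, with a mean signal of 32.0, in the band where the scatter SD of the control starvation ratio was 0.807.

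Among nucleic acid sensors, Ifih1 (MDA5, a cytoplasmic sensor of long double-stranded RNA) fell in control muscle, from 131.1 to 81.8, a log2 ratio of -0.68. In knockout muscle it went from 89.7 to 72.0, a ratio of -0.32 that did not pass 1.5-fold. The fed control array was the highest of the 4. Zbp1, a sensor of left-handed nucleic acid, was at 33.5 and 23.9 in control and at 40.5 and 37.5 in knockout muscle. Ddx58 (RIG-I), Eif2ak2 (the RNA-activated kinase PKR) and Adar (an RNA-editing enzyme) had ratios between -0.46 and 0.21 and passed 1.5-fold in neither genotype.

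On their brightest probe sets, none of the 6 antigen presentation genes passed 1.5-fold in any of the 4 comparisons. Over all genes the share called in 1 direction was between 3.38% and 14.6%, so the absence of calls among 6 genes says little. Some other probe sets past the filter did pass. The second of Tapbp was at -0.985 on the log2 scale in fed knockout over control muscle. Dimmer probe sets of H2-K1 passed downward in single comparisons, and those of H2-D1 in both directions. B2m, the light chain of every MHC class I molecule, was at 5710.6 fed and 5020.2 starved in the control, and at 5083.3 and 3954.8 in the knockout, starvation ratios of -0.19 and -0.36. The heavy chain gene H2-K1 was at 2403.0 and 2424.1, then 1872.8 and 1955.9, ratios of 0.01 and 0.06. H2-D1, the other classical heavy chain gene measured, was at 3435.6 and 3156.1, then 2615.4 and 2533.7, ratios of -0.12 and -0.05. Both heavy chains have many near-identical relatives and cross-hybridizing probe sets, so their signals may hold more than 1 gene. Tap1 and Tap2, which pump peptides into the endoplasmic reticulum, and Tapbp, which bridges them to MHC class I, had starvation ratios between -0.48 and 0.09. The ADP-ribosyltransferases Parp9 and Parp14 and the Parp9 partner Dtx3l likewise did not pass 1.5-fold on starvation on their brightest probe sets. Their ratios lay between -0.55 (Dtx3l in the control) and 0.07 (Parp14 in the control). A second Dtx3l probe set went from 162.1 to 104.5 in the control, a log2 ratio of -0.63 that passed. In the knockout this probe set was at -0.36 and did not pass.

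Several genes of the group have more than 1 probe set past the filter, which gives a check within each array. Of 14 such genes, 10 had all probe sets on the same side of 0 for starvation in control and 9 in knockout muscle. The second Gbp2 probe set had ratios of -0.50 and -0.77, and the second of Iigp1 had -0.53 and -1.44, so both passed 1.5-fold in knockout muscle only. Samhd1, H2-K1, H2-D1 and Tapbp had probe sets on both sides of 0 in both genotypes, and Adar did in the knockout. Samhd1 was the least settled, its probe sets spanning -1.09 to 1.56 in control muscle. For knockout over control, 9 of the 14 kept 1 direction when fed and 11 when starved. Ddx58, Samhd1 and H2-D1 had probe sets on both sides of 0 in both states, and Rsad2 and Iigp1 did when fed. The remaining genes that fell in both genotypes (Ifit1, Ifit3, Oasl2, Rtp4 and Gbp3) rest on a single probe set each.

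**Figure D3:**
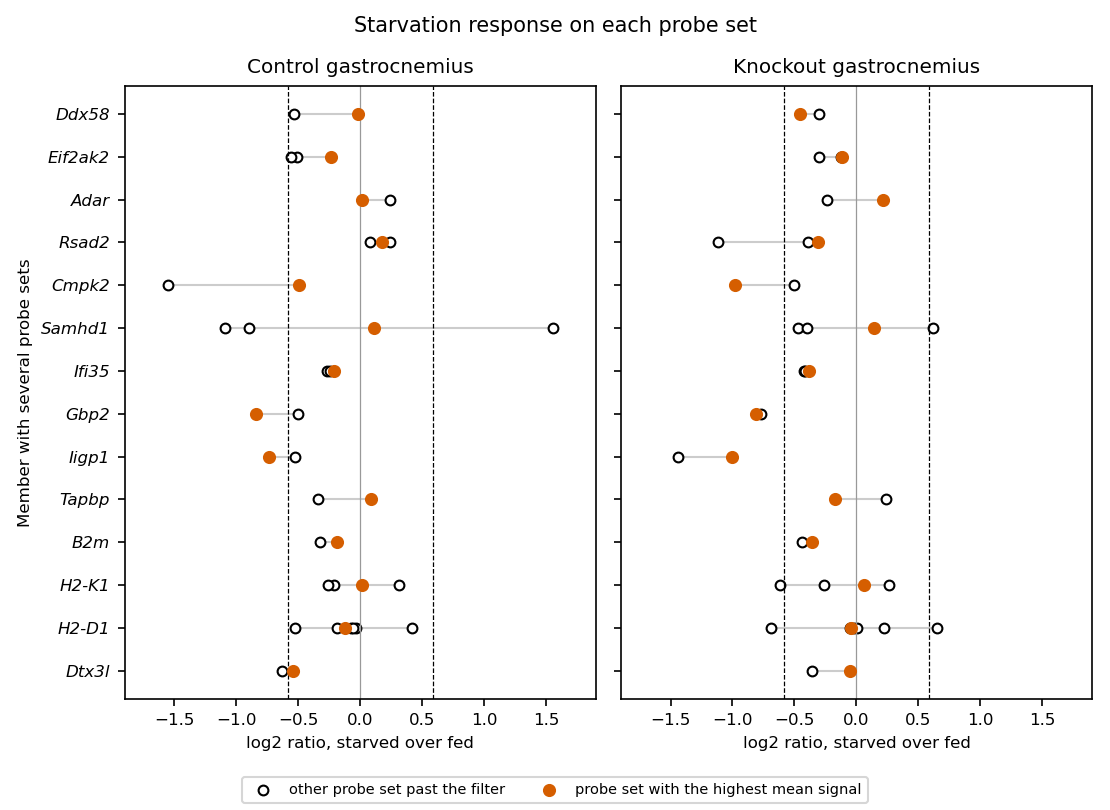
Log2 ratio of starved over fed signal for every probe set past the filter of the 14 genes that have several, in control (left) and knockout (right) muscle; orange marks the brightest probe set, which stands for the gene, and dashed lines mark 1.5-fold. Gbp2, Iigp1, Ifi35 and B2m lie left of 0 on all their probe sets in both panels, while Samhd1 and H2-D1 spread to both sides.

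The genes that fell in both genotypes were set beside the response element core. Among genes past the filter with a promoter entry, 4 of the 5 that fell in both genotypes hold the core shown above (Ifit1, Ifit3, Gbp2 and Gbp3, but not Oasl2). Of these, Ifit1 and Gbp3 no longer passed in control muscle after median scaling or quantile normalization. Rtp4 and Iigp1 also fell in both genotypes but have no promoter entry, so they are not in this count. Of the 22 others, 5 do (Rsad2, Bst2, Igtp, Irgm1 and B2m). The median starvation ratio of the 9 genes with the core was -0.53 in control and -0.53 in knockout muscle, and of the 18 without it -0.24 and -0.33. This split was made with the values known and is a description only.

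Between genotypes the ratios of all genes are shifted: the median log2 ratio of knockout over control was -0.196 fed and -0.162 starved over all genes as deposited, and near 0 once the arrays were put on a common scale, so values are also given relative to that median. For the interferon and antigen presentation genes the medians were -0.26 fed and -0.31 starved. In fed muscle 2 of the 34 genes were lower in the knockout (Samhd1 and Xaf1) and none was higher, where 11.3% and 3.38% of all genes were. In starved muscle 7 were lower (Irf7, Nlrc5, Ifit3, Rsad2, Samhd1, Xaf1 and Parp14) and Zbp1 was higher, where 14.6% and 6.39% of all genes were. As deposited, the share of lower genes was thus under that of all genes when fed and above it when starved, and the latter did not hold once the arrays were scaled. Median scaling gave 3 of 34 lower and 1 higher when starved, where 8.32% and 10.1% of all genes were, and 1 lower and 2 higher when fed, where 7.19% and 4.78% were. Quantile normalization gave 3 lower and 1 higher when starved, where 8.27% and 10.2% of all genes were, and 0 lower and 2 higher when fed, where 6.35% and 5.07% were. The starved count of lower genes was then about that of all genes.

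Samhd1 and Xaf1 were lower both fed and starved, 2 of 34 (5.88%) where 3.35% of all genes were. For Samhd1 the log2 ratios of -0.74 fed and -0.71 starved were -0.54 and -0.55 relative to all genes, and on this probe set the control and knockout signals did not overlap. None of its other probe sets past the filter kept that direction in both states: one was at -0.39 fed and 0.03 starved, another at -1.43 and 0.28, and another at 0.24 and -1.72. On the mean of its probe sets Samhd1 passed 1.5-fold in neither state. For Xaf1 the ratios were -0.63 and -0.67, or -0.44 and -0.51 relative to all genes, again without overlap. Under quantile normalization neither of them passed 1.5-fold in either state, and with arrays scaled to the same median only fed Samhd1 did.

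Parp14, an ADP-ribosyltransferase, had the largest difference between starved arrays, at 118.6 in control and 58.3 in knockout muscle, with 112.8 and 76.4 in the fed state. Its ratio was -1.03 starved and -0.56 fed, or -0.86 and -0.37 relative to all genes. Starved Ifit3 and Irf7 followed, at -0.88 and -0.85, or -0.72 and -0.69 relative to all genes. Parp14, Ifit3 and Irf7 were the 3 that stayed lower in starved knockout muscle when the arrays were scaled to the same median or quantile normalized. Rsad2 was at -0.74 and Nlrc5 at -0.76, or -0.58 and -0.59 relative to all genes. Zbp1 was higher by 0.65 on the log2 scale in starved knockout muscle, on a dim probe set with a mean signal of 33.9.

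A ratio below the median of all genes both fed and starved was found for 19 of the 34 genes (55.9%), against 29.0% of all genes. Both knockout signals were below both control signals in 13 (38.2%), which is close to the 36.9% of all genes. MHC class I heavy chains were at -0.36 fed and -0.31 starved for H2-K1 and at -0.39 and -0.32 for H2-D1, of which -0.16 and -0.15, and -0.20 and -0.16, remained relative to all genes. Other H2-D1 probe sets reached 0.30 fed and 0.81 starved, so its direction is not settled, while all 4 of H2-K1 were below 0.

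**Figure D4:**
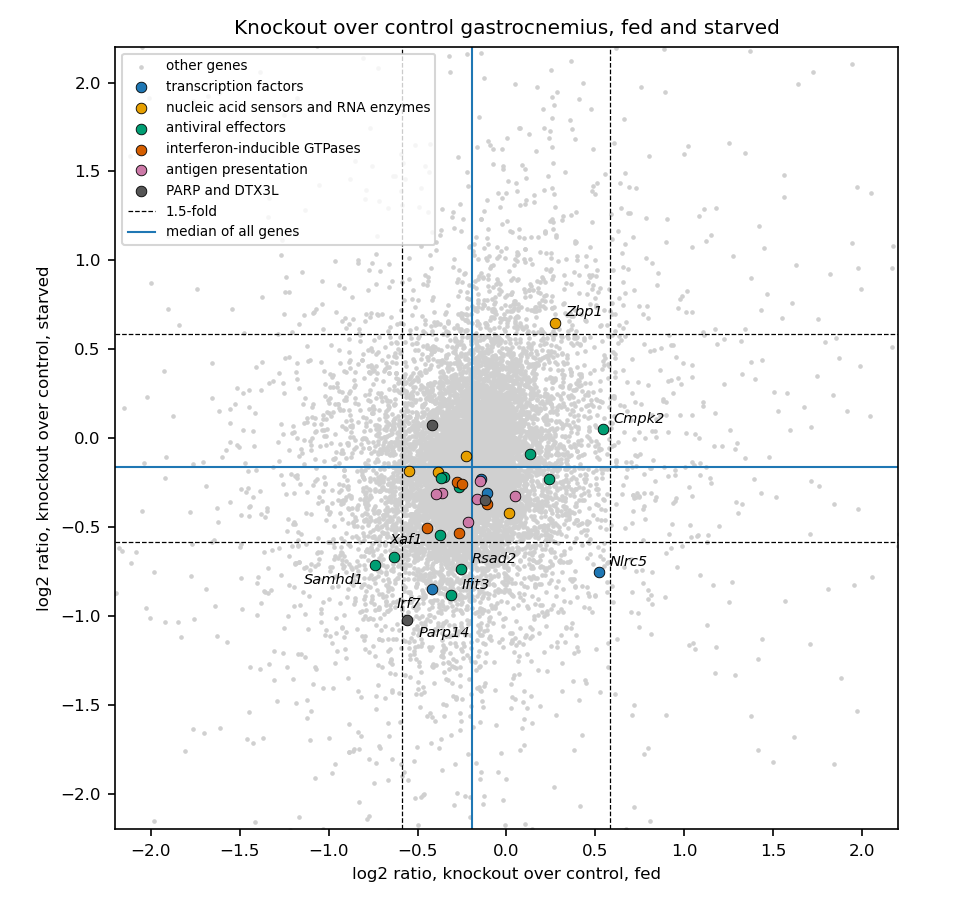
Log2 ratio of knockout over control signal in fed (horizontal) and starved (vertical) muscle for all genes that were counted (grey) and the 34 interferon and antigen presentation genes (coloured by role); 329 genes lie outside the axes and blue lines mark the medians of all genes. Most coloured points lie below the horizontal blue line, Samhd1 and Xaf1 lie beyond both dashed lines, and Zbp1 is the only one above the upper line.

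The rest of the pathway was read from lists of other genes. Interferons themselves were dim. Of 8 ligand genes 5 had a probe set of their own, and 4 of these were under the filter on dim signals. Ifnb1 was between 12.5 and 19.6 on all arrays, and Ifna1, the 1 past the filter, between 0.9 and 27.4. Of 17 receptor and signalling genes 16 were measured and past the filter. On starvation 4 fell in control muscle (Socs1, Ifngr2, Usp18 and Irf5) and none rose, and in the knockout 2 fell (Socs3 and Usp18) and 1 rose (Ifngr1). With 14.2% of all genes falling in the control and 9.45% in the knockout, the knockout count is near that of all genes. Usp18, an interferon-induced brake on the type I receptor, went from 84.4 to 43.4 in control and from 68.6 to 37.9 in knockout muscle, the only one of the 16 that fell in both. The type I receptor chain Ifnar1 was at 144.7, 119.5, 115.5 and 111.1 (fed and starved control, then fed and starved knockout), and the interferon gamma receptor chain Ifngr1 at 513.3, 689.5, 390.6 and 596.8. Ifnar1 passed 1.5-fold in neither genotype and Ifngr1 in the knockout.

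Other interferon-stimulated genes, 37 past the filter, gave 10 that fell and 2 that rose in control muscle, beside 14.2% and 9.23% of all genes, and 9 that fell and 2 that rose in the knockout, beside 9.45% and 7.39%. Oas1a, Irgm2 and Trim34a fell in both, 3 of 37 where 3.91% of all genes did. Irgm2, a regulator of the GTPases above, went from 180.0 to 88.9 and from 134.3 to 59.6, and Oas1a, a sensor that activates RNA decay, from 65.1 to 31.7 and from 66.4 to 38.6. The median log2 ratio of the 37 was -0.43 in control and -0.26 in knockout muscle, and 28 of them were below the median of all genes in each. Gbp6, a further guanylate-binding protein, fell in control muscle, from 457.8 to 230.7, and was at 480.5 and 520.9 in the knockout. The immunoproteasome subunit Psmb8 fell in control muscle, from 314.2 to 199.2, and went from 201.7 to 173.6 in the knockout, while Psmb9 was at 178.6 and 151.7, then 127.0 and 111.9.

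Genes around the group were counted in the same way. Of 8 virus sensing genes past the filter none fell on starvation in either genotype, where 14.2% of all genes fell in the control and 9.45% in the knockout. Tbk1 (the kinase that activates interferon production, from 538.0 to 888.9) and Ticam1 rose in control muscle, where 9.23% of all genes rose. With so few genes these counts say little. The 5 helpers of MHC class I loading had no calls in any comparison. MHC class II presentation, a function of professional antigen-presenting cells, had no calls on starvation among 6 genes, and its median was -0.53 in knockout over control muscle both fed and starved, or -0.33 and -0.36 relative to all genes. H2-Aa and H2-Eb1 were lower in the knockout in both states as deposited, where 3.35% of all genes were. Relative to all genes H2-Aa was at -0.42 fed and -0.51 starved and H2-Eb1 at -0.44 and -0.97, so that starved H2-Eb1 alone remained past 1.5-fold. Cd74, the class II invariant chain, was at 609.3 and 496.6 in control and 406.4 and 346.1 in knockout muscle.

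**Figure D5:**
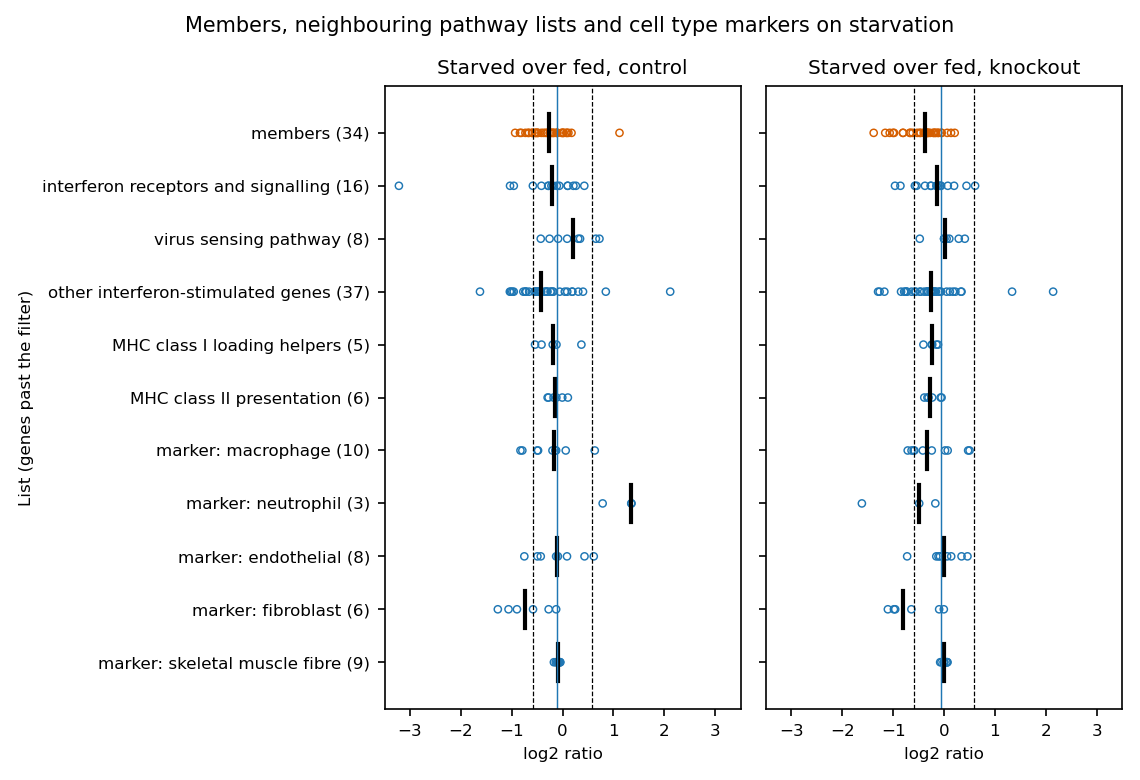
Log2 ratio of starved over fed signal for each gene past the filter (circles) and its list median (black bars) in control (left) and knockout (right) muscle; the blue line is the median of all genes, dashed lines mark 1.5-fold and the number of genes stands after each list name. The list medians of the 34 genes of the group (orange) and the 37 other interferon-stimulated genes lie left of the blue line in both panels. So do those of receptors and signalling, both MHC lists, and macrophage and fibroblast markers, furthest for fibroblast markers. Single genes of most lists lie on either side of the blue line, and muscle fibre markers lie close to it.

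Markers of the other cells of muscle were read beside these values. In RNA of whole muscle, fewer cells of a type and less RNA per cell cannot be told apart. The summed signal of 10 macrophage markers, all past the filter, was 7799.1 fed and 7068.0 starved in control and 6037.6 and 5299.2 in knockout muscle. Adgre1, the F4/80 antigen, was at 214.0, 151.3, 161.8 and 121.3, and Cd68 was at 140.8, 127.5, 106.0 and 147.3. C1qb and C1qc fell on starvation in both genotypes, where 3.91% of all genes did. Cd163, a scavenger receptor of tissue macrophages, went the other way, from 358.3 to 555.3 in the control, where it rose, and from 295.9 to 419.3 in the knockout, which did not pass 1.5-fold. The macrophage list had a median starvation ratio of -0.17 in the control and -0.33 in the knockout, and a median of -0.38 between genotypes in both states, or -0.19 fed and -0.22 starved relative to all genes. All 10 markers were below the median of all genes in fed knockout over control muscle and 9 of 10 in the starved state. For 8 endothelial markers, which together stood at 3700.3 and 3589.7 in control and 2934.3 and 2996.9 in knockout muscle, the starvation medians were -0.11 and -0.01. Pecam1, the endothelial adhesion molecule, was at 283.8, 382.4, 242.1 and 307.4. Of the 8, Kdr, a receptor for vascular endothelial growth factor, fell in both genotypes (log2 ratios of -0.75 and -0.72), and Cldn5, a tight junction protein, rose in the control (0.61, and 0.46 in the knockout). Fibroblast markers, 6 genes with a summed signal of 30444.1 and 22392.7 in control and 27102.2 and 20658.5 in knockout muscle, held 3 genes that fell on starvation in both genotypes (Col1a1, Col3a1 and Lum), again beside 3.91% of all genes. Neutrophil markers (3 of 6 past the filter) summed to 160.2, 377.2, 226.5 and 134.9, highest on the starved control array, the array on which Nlrc5 was high. Of 11 lymphocyte and 5 dendritic cell markers 1 each passed the filter. The part of these cells in the differences above was not tested.

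The labels were checked once on all arrays. Muscle fibre markers were bright (summed signal between 127041.0 and 135149.9) with no calls in any comparison. Foxo4 was at 296.9 and 291.3 in control and 31.3 and 34.3 in knockout muscle, and Foxo1 at 303.8 and 554.4 against 185.2 and 165.5, while Foxo3 (250.1 and 477.8, then 297.3 and 460.9) did not follow the genotype, the place of its probe set relative to the deleted part being unknown here. Hair and skin genes differed between pools, Krt25 being at 252.9, 6.9, 18.2 and 318.5 and Lor at 12.5, 177.5, 132.8 and 131.5.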

How the data were processed

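RNA pooled from 6 muscles of 3 mice was hybridized to 1 Affymetrix mouse array per condition, 4 in all. The authors deposited linear signal intensities from the MAS 5.0 algorithm, and Affymetrix Expression Console is named in the submitters' processing notes. Neither a scaling target nor detection calls are given in those sources. Array medians were between 22.9 and 26.3, and precision is limited by the number of arrays.

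Ratios of the deposited intensities were taken in Python 3.11.15 (pandas 2.3.3, numpy 2.4.6) and plotted in matplotlib 3.10.9. Of 45037 probe sets without controls, 34945 have 1 gene in the platform annotation, 932 several and 9160 are not listed; only the first were used. Probe sets at or above the 50th percentile of at least 1 array were kept, the brightest stood for its gene, a signal of 0 was set to 0.1, and calls were made at 1.5-fold, the threshold of the study. The scatter between probe sets is the SD of a probe set's log2 ratio about the mean of its gene, in 5 bands of signal.

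The 39 genes and the 16 other lists were chosen with earlier results of these data known. Every gene of the group could be named, with all 4 signals for those called in at least 1 comparison and for H2-K1, H2-D1, B2m, Stat2, Irf9 and Irf1; of each other list, up to 5 with the largest ratios and a few fixed genes were. Counts of non-overlapping or doubly called genes, the names of both-genotype calls and the split by motif were chosen after values were seen. Promoters are RefSeq windows of GRCm38.p6, of which 30 of the 39 genes have one. Calling was tested on simulated data. Alternatives were array scaling, the filter, an offset of 20 units, the mean over probe sets and a 2-fold threshold.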

Additional observations from a re-analysis of the deposited data

Results flagged for a closer look

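Nlrc5 rose on starvation in control but not in knockout muscle: its log2 ratio was 1.12 in control and -0.16 in knockout muscle, a difference of 1.275. Its probe set is dim, with a mean signal of 32.0. The knockout ratio lay within the scatter SD of 0.827 of such probe sets, so its sign is not settled. With 1 array per condition the difference between genotypes was not tested. Neutrophil markers were highest on the same starved control array, with a summed signal of 377.2, and their part in it was not tested.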

How the results depend on the processing

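No paired analysis was possible because each condition has 1 array. All counts are of genes of the group called at 1.5-fold unless stated. With arrays scaled to the same median, knockout over control gave 2 up and 1 down fed (median log2 ratio -0.115) and 3 down starved (median -0.13), about the share of all genes; quantile normalization gave 2 up and 0 down fed (median -0.061) and 3 down starved (median -0.113). These scalings move the median of all genes between genotypes from -0.196 to -0.051 and -0.002 fed and from -0.162 to 0.022 and 0.019 starved. Without the filter on dim probe sets 2 genes rose on starvation in the control and 1 in the knockout, where 16.5% and 15.1% of all genes did. A filter at the 75th percentile, which leaves 18 of the genes, gave 0 up and 4 down in control (6.78% and 11% of all genes), 4 down in knockout (5.49%), and 0 up and 3 down in starved knockout over control muscle (3.61% and 11%). An offset of 20 units gave 4 down in control and 6 in knockout muscle on starvation (9.28% and 4.9% of all genes), 1 down in fed (5.69%) and 0 up in starved (3.81%) knockout over control muscle. With the mean over probe sets, 1 gene was up fed and 2 were up starved in knockout over control muscle (3.91% and 6.74% of all genes). On starvation that setting gave 10 down in control and 11 in knockout muscle (14.3% and 9.84% of all genes). Of the group, 8 were then down in both genotypes (3.85% of all genes). At 2-fold, 0 fell in control (4.81% of all genes) and 4 in knockout muscle (Ifit1, Ifit3, Iigp1 and Rtp4; 3.21%) on starvation, and knockout over control gave 0 down fed (3.55%), and 0 up and 1 down starved (Parp14; 3.02% and 4.52%). No median of the group and no called ratio of a single gene changed sign under the alternatives run, and single-gene ratios moved beyond the scatter only for Cmpk2 (2 ratios) and Tapbp (1 ratio), with the mean over probe sets. The falls of Ifit3, Oasl2, Rtp4, Gbp2 and Iigp1 in both genotypes held under both scalings, while Ifit1 and Gbp3 no longer passed in control muscle. With the offset of 20 units 4 genes fell in both genotypes (Ifit3, Rtp4, Gbp2 and Iigp1), against 2.02% of all genes. Oasl2 then passed in neither genotype. The cause of the falls was not tested.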
